A study of Rattus norvegicus with 3 samples.

Results

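The glial fate transcription factors considered here were SOX2, SOX6, SOX8, SOX9, SOX10, OLIG1, OLIG2, NKX6-2, MYRF and ID4. They were chosen by name, and all 10 had an entry in a table of 12771 entries with 12758 gene symbols. The values came from cell-poor supernatant of rat spinal cord. Female Sprague Dawley rats, 3 months old and with no genetic change named, had a laminectomy at T9 either without a contusion (No-SCI) or with a contusion of the exposed cord (SCI). A piece of cord at T8, just above the lesion, was removed after 24 h and digested in the cold, and the RNA left after the cells had been pelleted was sequenced. By the labels 2 libraries belong to No-SCI and 1 to SCI, although the methods of the study give 2 animals per condition. For each gene the authors deposited 1 FPKM value per group, that is, fragments scaled to transcript length and to library size. Neither values of single libraries nor read counts were at hand, so the depth behind a value is unknown and no difference below could be set against the spread between animals. None was tested, and "higher" and "lower" describe these group values only. A fall in such a supernatant can reflect fewer cells of a type in the piece taken, less RNA per cell or less of that RNA left in the supernatant. These cannot be told apart here.

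SOX proteins bind DNA through an HMG box, OLIG and ID proteins carry a helix-loop-helix fold, NKX6-2 has a homeodomain, and MYRF is a membrane-bound factor that is cut to release its DNA-binding part. In the spinal cord OLIG2 first sets aside the progenitors that give motor neurons and then oligodendrocytes. SOX10 and, later, MYRF switch on the myelin genes, while SOX9 acts in glial specification and is kept by adult astrocytes.

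The genes of the SOXE family, SOX8, SOX9 and SOX10, had similar values before injury, and all 3 were more than 2-fold lower after SCI. OLIG1 and OLIG2 were almost the same in both groups, and NKX6-2 was 2.19-fold higher. Of the 10 factors, 7 were lower and 3 higher after injury, where 56.3% of all entries were lower and 43.7% higher. A difference of at least 2-fold was used as the line for a call. By it 3 of the 10 were lower and 1 was higher. Of all entries, 12.1% were lower and 7.96% higher by that much. Among the 8790 entries whose No-SCI value lay within the range of the 10 factors, 13.9% were at least 2-fold lower and 5.84% at least 2-fold higher. The minimum fold in the methods of the study is 1.3. By it 7 factors were lower and 1 was higher, where 35.7% of all entries were lower and 24.6% higher. On the log2 scale the median ratio (SCI over No-SCI) was −0.61 for the 10 factors and −0.12 for all entries.

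**Figure D1:**
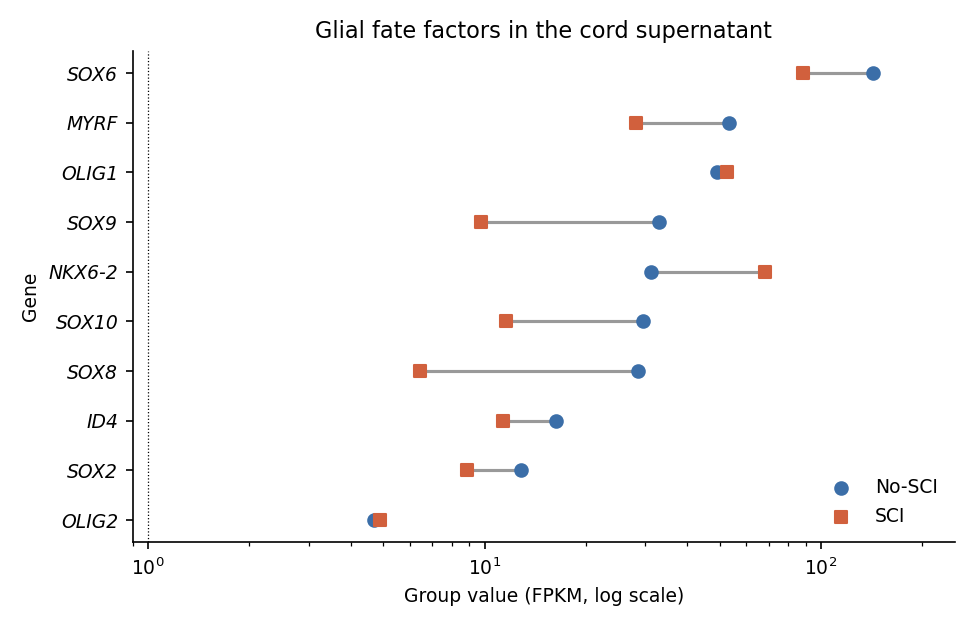
Group values of the 10 glial fate factors, in FPKM on a log axis, with No-SCI as circles and SCI as squares and a line joining the 2 values of a gene. The dotted line marks 1, the lowest value in the table. SOX8, SOX9 and SOX10 have the longest lines toward lower values, OLIG1 and OLIG2 have almost none, and NKX6-2 moves from 31.2 to 68.3.

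SOX8 had a group value of 28.6 FPKM in No-SCI and 6.44 FPKM in SCI, 4.45-fold lower, a log2 ratio of −2.15. SOX8 works beside SOX10 in oligodendrocyte differentiation. Only 0.916% of all entries had a log2 ratio as low as that of SOX8 or lower. SOX9, which is needed for glial specification in the cord and marks adult astrocytes, went from 33.1 to 9.77 FPKM, 3.39-fold lower, with a log2 ratio of −1.76. SOX10, which activates myelin genes throughout the oligodendrocyte lineage and in Schwann cells, went from 29.5 to 11.6 FPKM, 2.55-fold lower, with a log2 ratio of −1.35. Before injury the 3 SOXE genes lay within a narrow band, and SOX8 was 0.969 times SOX10 and SOX9 1.12 times SOX10. After injury SOX8 was 0.557 times SOX10 and SOX9 0.845 times SOX10. These ratios between genes of 1 group do not depend on how the groups were scaled. The summed FPKM of the 3 genes was 91.2 in No-SCI and 27.8 in SCI.

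SOX6 was the most abundant of the 10 in both groups. It restrains oligodendrocyte precursors from maturing too early, and it had 143 FPKM in No-SCI and 88.6 FPKM in SCI. In No-SCI 88.7% of the entries were at or below its level. Its log2 ratio was −0.69, short of a 2-fold difference. SOX5, which like SOX6 is a SOXD gene, was not among the 10 but lay close to SOX6 before injury, with 131 FPKM. SOX5 had 46.1 FPKM in SCI, 2.83-fold lower, so that the ratio of SOX5 to SOX6 went from 0.915 to 0.520. SOX2, which keeps neural progenitors undifferentiated and persists in adult glia, had 12.8 FPKM in No-SCI and 8.88 FPKM in SCI, a log2 ratio of −0.53. All 5 SOX genes among the factors were thus lower after SCI, from 1.45-fold for SOX2 to 4.45-fold for SOX8.

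OLIG1 and OLIG2 are neighbouring genes on the rat chromosome and specify the oligodendrocyte lineage. OLIG1 had 49.1 FPKM in No-SCI and 52.5 FPKM in SCI, and OLIG2 had 4.69 and 4.89 FPKM. Their log2 ratios were 0.10 and 0.06. OLIG2 was the least abundant of the 10. In No-SCI 19.9% of the entries were at or below OLIG2, and 73.3% were at or below OLIG1. The ratio of OLIG1 to OLIG2 was 10.5 before and 10.7 after injury, so both the gap between them and their level were almost the same in the groups. Set against SOX10, OLIG1 stood at 1.66 times before and 4.54 times after injury, a shift of 2.73-fold, and the shift of OLIG2 against SOX10 was 2.66-fold.

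NKX6-2, a homeodomain repressor that remains in myelinating oligodendrocytes, was the 1 factor past the 2-fold line in the upward direction. It had 31.2 FPKM in No-SCI and 68.3 FPKM in SCI, a log2 ratio of 1.13, at percentile 93.6 of the ratios of all entries. By level it moved from the fifth of the 10 in No-SCI to the second in SCI, after SOX6. NKX2-2, a homeodomain factor that promotes oligodendrocyte differentiation, went the other way, from 18.6 to 4.66 FPKM, 3.99-fold lower. The ratio of NKX6-2 to NKX2-2 was accordingly 1.68 in No-SCI and 14.7 in SCI. MYRF, which drives the last step to myelination, had 53.2 FPKM in No-SCI and 28.2 FPKM in SCI, 1.89-fold lower, just short of the line with a log2 ratio of −0.92. NKX6-2 was 0.587 times MYRF before and 2.42 times MYRF after injury.

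ID4, which has a helix-loop-helix but no DNA-binding part and blocks the partners of OLIG proteins, had 16.3 FPKM in No-SCI and 11.4 FPKM in SCI, a log2 ratio of −0.52. Its relatives were more abundant and did not all share that direction. ID1 went from 90.3 to 415 FPKM, 4.59-fold higher, and ID3 from 152 to 303 FPKM, 1.99-fold higher. ID2 had 69.7 FPKM in No-SCI and 54.6 FPKM in SCI. The ratio of ID1 to ID4 was 5.53 before and 36.4 after injury.

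**Figure D2:**
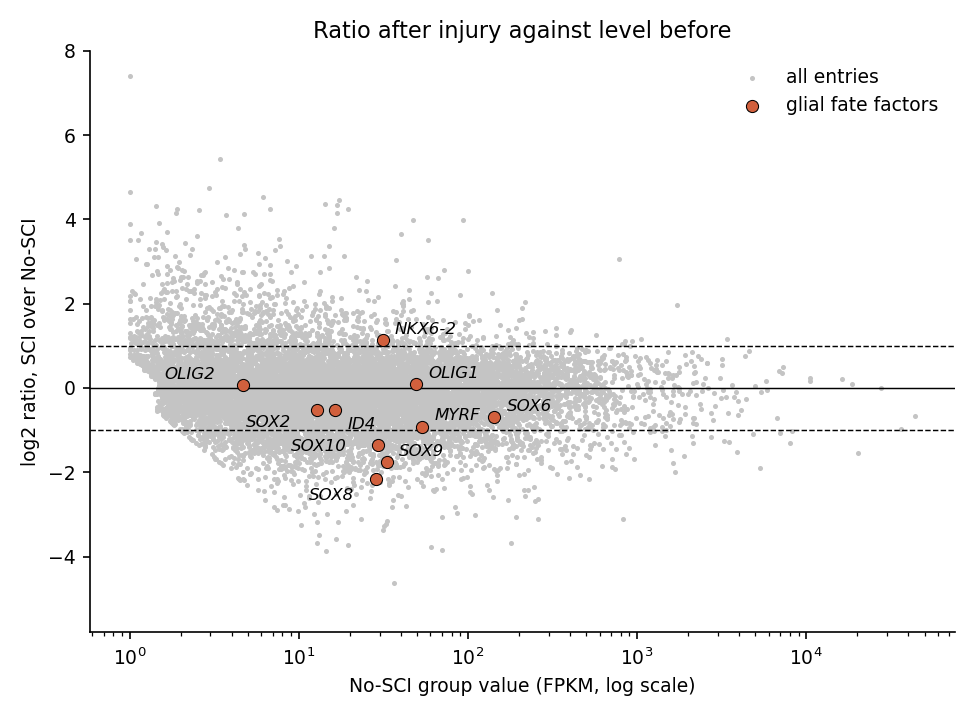
Log2 ratio of SCI over No-SCI against the No-SCI group value in FPKM (log axis), with all entries in grey, the 10 factors in orange and dashed lines at a 2-fold difference. SOX8, SOX9 and SOX10 lie below the lower line at No-SCI values of 28.6 to 33.1, and NKX6-2 lies above the upper line at a similar level of 31.2.

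The values of 2 factors need care as levels. The SCI values of SOX6 and MYRF were given with 7 significant digits, 1 more than any other value of the 10 factors. If a value is the sum of several estimates for 1 symbol, how it ranks among other genes depends on their number, which was not tested.

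Promoter sequence was held by the RefSeq table used here for 5 of the 10 factors, and 3 are shown because they stand for a factor that was higher, one that was level and one that was lower after SCI. Each is the 250 bases before the start of the gene on its own strand in GRCr8, whereas the FPKM values were made on rn6. Capitals mark the core E-box CANNTG, the kind of site that helix-loop-helix pairs bind, and the SOX core ACAAT, both searched on either strand. The NKX6-2 stretch is chr1:203813123-203813372 on the minus strand, that of OLIG2 is chr11:43961335-43961584 on the plus strand, and that of SOX2 is chr2:119464881-119465130 on the plus strand.
NKX6-2: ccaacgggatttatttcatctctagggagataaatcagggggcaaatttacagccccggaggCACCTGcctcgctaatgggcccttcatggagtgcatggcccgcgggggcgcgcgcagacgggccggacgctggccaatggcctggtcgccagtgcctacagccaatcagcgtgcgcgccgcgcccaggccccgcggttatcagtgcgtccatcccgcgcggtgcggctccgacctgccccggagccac
OLIG2: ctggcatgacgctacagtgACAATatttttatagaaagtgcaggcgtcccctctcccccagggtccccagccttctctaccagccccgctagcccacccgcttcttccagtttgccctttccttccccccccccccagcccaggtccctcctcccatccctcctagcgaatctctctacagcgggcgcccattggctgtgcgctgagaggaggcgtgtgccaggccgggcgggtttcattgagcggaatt
SOX2: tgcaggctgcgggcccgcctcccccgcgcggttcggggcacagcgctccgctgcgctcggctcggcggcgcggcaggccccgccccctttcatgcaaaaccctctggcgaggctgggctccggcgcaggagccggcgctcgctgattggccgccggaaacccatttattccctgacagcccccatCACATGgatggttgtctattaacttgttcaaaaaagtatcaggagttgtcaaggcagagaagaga
The NKX6-2 stretch held 1 E-box and 0 SOX cores, that of OLIG2 held 0 E-boxes and 1 SOX core, and that of SOX2 held 1 E-box and 0 SOX cores. Among 33469 promoters of the same length, 65.54% held the E-box and 30.02% the SOX core, so these matches are common. The G and C share was 67.2% for NKX6-2, 62.0% for OLIG2 and 64.4% for SOX2, against a median of 51.2% over all promoters. Of the other factors with a promoter sequence, SOX6 had a share of 42.8% with 2 E-boxes and 2 SOX cores, and ID4 had 62.8% with 0 of either. Such matches describe letters in the window and say nothing of binding.

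Other SOX genes served as a comparison within the family. Of 15, 8 had an entry, of which 6 were higher and 2 lower after SCI, and their median log2 ratio was 0.38. SOX18 and SOX17, which act in endothelium, were past the 2-fold line upward. SOX18 went from 2.79 to 15.5 FPKM, 5.55-fold higher, and SOX17 from 3.64 to 9.55 FPKM, 2.62-fold higher. SOX7, the third gene of that endothelial subfamily, had 4.83 and 4.71 FPKM. SOX11, SOX12, SOX13 and SOX15 were at 1.46 to 5.62 FPKM in No-SCI and 1.91 to 6.59 FPKM in SCI. SOX5 and the 5 SOX members were thus more abundant before injury than these and lower after it, while 6 of the 7 other genes listed apart from SOX5 were higher. SOX13, for example, had 5.62 FPKM in No-SCI and 6.59 FPKM in SCI. SOX1, SOX3, SOX4, SOX14, SOX21, SOX30 and SRY had no entry.

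**Figure D3:**
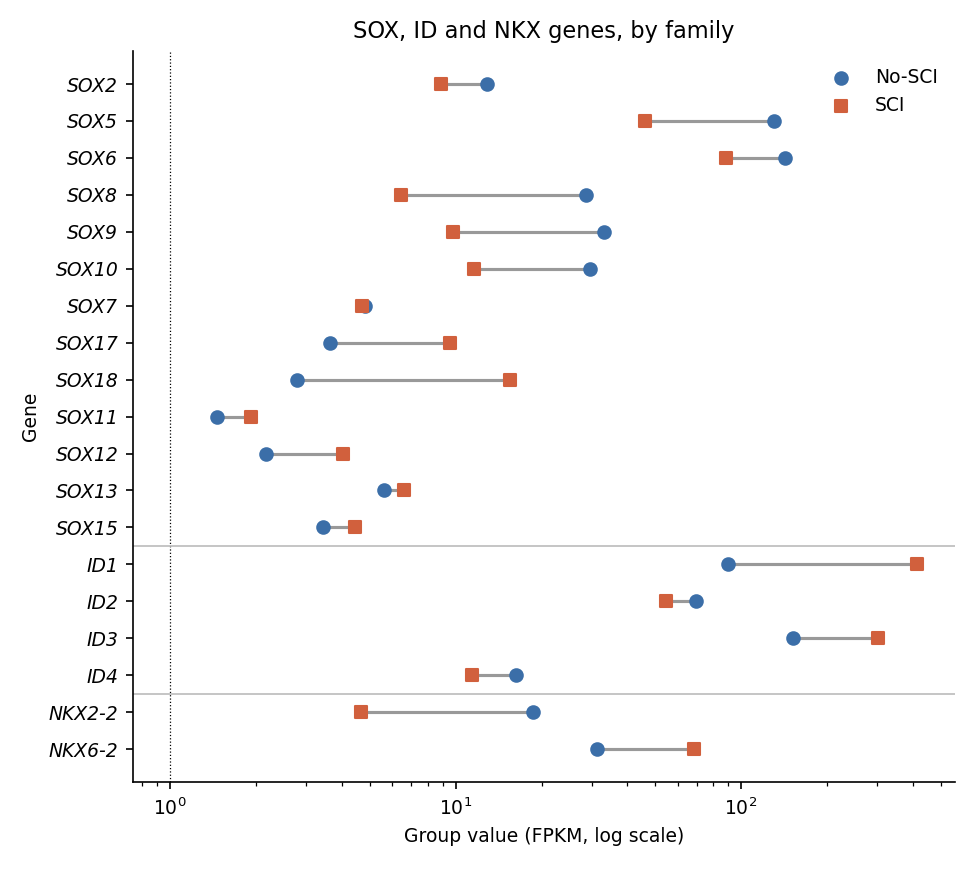
Group values in FPKM (log axis) of the listed SOX, ID and NKX genes, with No-SCI as circles and SCI as squares. SOX2, SOX5, SOX6, SOX8, SOX9 and SOX10 lie lower after SCI, SOX7 is almost level, and the other SOX genes lie higher. ID1 and ID3 move away from ID4, and NKX2-2 and NKX6-2 move in opposite directions.

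Other regulators of the oligodendrocyte lineage did not share 1 direction. Of 27 genes, 23 had an entry, with 14 lower and 9 higher after SCI and a median log2 ratio of −0.23. By the 2-fold line 6 were lower and 4 higher. ZFP488, a zinc finger protein that works with OLIG2, had the lowest ratio, going from 11.5 to 1.88 FPKM. GPR17, a receptor of precursors on the way to differentiation, went from 6.84 to 1.37 FPKM, and NKX2-2, given above, came next. The SCI values of ZFP488 and GPR17 lie near the lowest value of 1, so their ratios need care. HDAC2 (3.99 to 10.6 FPKM), PRRX1 (24.1 to 63.7 FPKM) and TCF12 (33.5 to 85.3 FPKM) had the highest ratios. HDAC2 is a histone deacetylase, PRRX1 a homeobox gene also active in mesenchyme, and TCF12 an E protein that pairs with OLIG and other helix-loop-helix proteins. TCF4, another E protein and the most abundant of the list, had 1191 FPKM in No-SCI and 1113 FPKM in SCI.

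Regulators of astrocytes and radial glia went both ways. Of 25 genes, 18 had an entry, 13 of them lower and 5 higher, with a median log2 ratio of −0.51. By the 2-fold line 4 were lower and 3 higher. NFIA, which acts with SOX9 at the start of gliogenesis, had 368 FPKM in No-SCI and 184 FPKM in SCI, 2.004-fold lower. NFIX, a relative of NFIA, had 322 and 220 FPKM, and ZBTB20, the most abundant of the list, 3426 and 2258 FPKM. The lowest ratios past the line were those of ATF3, a stress-induced factor that went from 246 to 48.6 FPKM, HES5 and PAX6, a patterning gene of neural progenitors that went from 33.9 to 14.9 FPKM. HES1, an effector of Notch signalling, was 3.88-fold higher, from 3.53 to 13.7 FPKM. HES5, its relative, went from 3.10 to 1.34 FPKM, near the lowest value of 1. The Notch pathway, which holds progenitors back from differentiation, was otherwise mixed. Of 25 Notch genes, 16 had an entry, 7 of them lower and 9 higher, with a median log2 ratio of 0.13. The receptor gene NOTCH3 and the ligand genes DLL1, DLL3, DLL4, JAG1 and JAG2 had no entry. MAML3, DTX1 and HEY1 had none either. RBPJ, the DNA-binding partner of Notch, had 82.2 FPKM in No-SCI and 53.6 FPKM in SCI.

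The other helix-loop-helix and ID genes gave a median log2 ratio of 0.14 over 13 with an entry, 6 lower and 7 higher. Apart from ID1 and TCF12, the E protein TCF3 was past the 2-fold line upward, from 7.63 to 16.6 FPKM. HIF1A, the oxygen-sensitive factor, was the 1 gene of that list past the line downward, from 201 to 84.2 FPKM.

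Myelin genes, listed by name as bound by SOX10 or MYRF, were lower as a group. Whether either factor acts on them in this tissue was not tested. Of 27 myelin genes, 23 had an entry, 21 were lower and 2 higher, and 14 were at least 2-fold lower and 0 at least 2-fold higher. Their median was 90.5 FPKM in No-SCI and 27.4 FPKM in SCI, and their median log2 ratio was −1.26. OPALIN, a membrane protein of oligodendrocytes, went from 172 to 27.4 FPKM, and UGT8, the enzyme that makes galactosylceramide, from 44.0 to 8.58 FPKM. ASPA, which splits N-acetylaspartate and is named here after its values had been seen, was higher but short of the line, with 238 FPKM in No-SCI and 319 FPKM in SCI. MBP, ENPP2, NFASC and CDH19 had no entry. The most abundant genes of the list with an entry were MOBP, with 44200 and 27648 FPKM, and BCAS1, with 36068 and 18311 FPKM. Set against the median ratio of the myelin genes, SOX8, SOX9 and SOX10 kept negative log2 ratios of −0.89, −0.50 and −0.09, and 0 of the 10 factors was 2-fold lower, while OLIG1, OLIG2 and NKX6-2 were 2-fold higher. Markers of oligodendrocyte precursors had 13 genes with an entry, 10 lower and 3 higher. Their median log2 ratio was −0.74. NEU4, a sialidase, went from 49.9 to 11.1 FPKM, and PTPRZ1, a receptor phosphatase, from 19.5 to 5.52 FPKM. SERPINE2, a protease inhibitor and the most abundant gene of the list, had 177 FPKM in No-SCI and 235 FPKM in SCI. The list also holds the receptor gene PDGFRA (13.0 and 21.1 FPKM) and the proteoglycan gene CSPG4 (1.63 and 1.60 FPKM, near the lowest value of 1). Both are added with their values known and were not lower by 2-fold. Whether their RNA came from precursors was not tested. The summed FPKM of the precursor list was 308 in No-SCI and 302 in SCI, of which SERPINE2 alone gave 177 and 235. The near-equal sums thus do not describe most genes of the list.

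Astrocyte genes are the counterpart for SOX9. Of 29, 21 had an entry, 18 lower and 3 higher, with a median log2 ratio of −1.01 and 11 at least 2-fold lower. SLC39A12, a zinc transporter, had the lowest ratio, going from 42.9 to 6.20 FPKM, and FGFR3, a growth factor receptor of astrocytes, went from 21.4 to 5.74 FPKM. Of the 3 most abundant genes, NDRG2 went from 8001 to 3228 FPKM. APOE had 10448 and 11804 FPKM, and GLUL 5858 and 5624 FPKM. The summed FPKM of the list was 29878 in No-SCI and 25242 in SCI. VIM, an intermediate filament of reactive and immature astrocytes and of many mesenchymal cells, was the 1 gene at least 2-fold higher, from 819 to 1674 FPKM. GFAP, S100B, AQP4, SLC1A3, ALDOC, HEPACAM, CPE and SERPINA3 had no entry. SOX9 was 0.983 times the glutamate transporter gene SLC1A2 in No-SCI and 0.585 times in SCI.

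**Figure D4:**
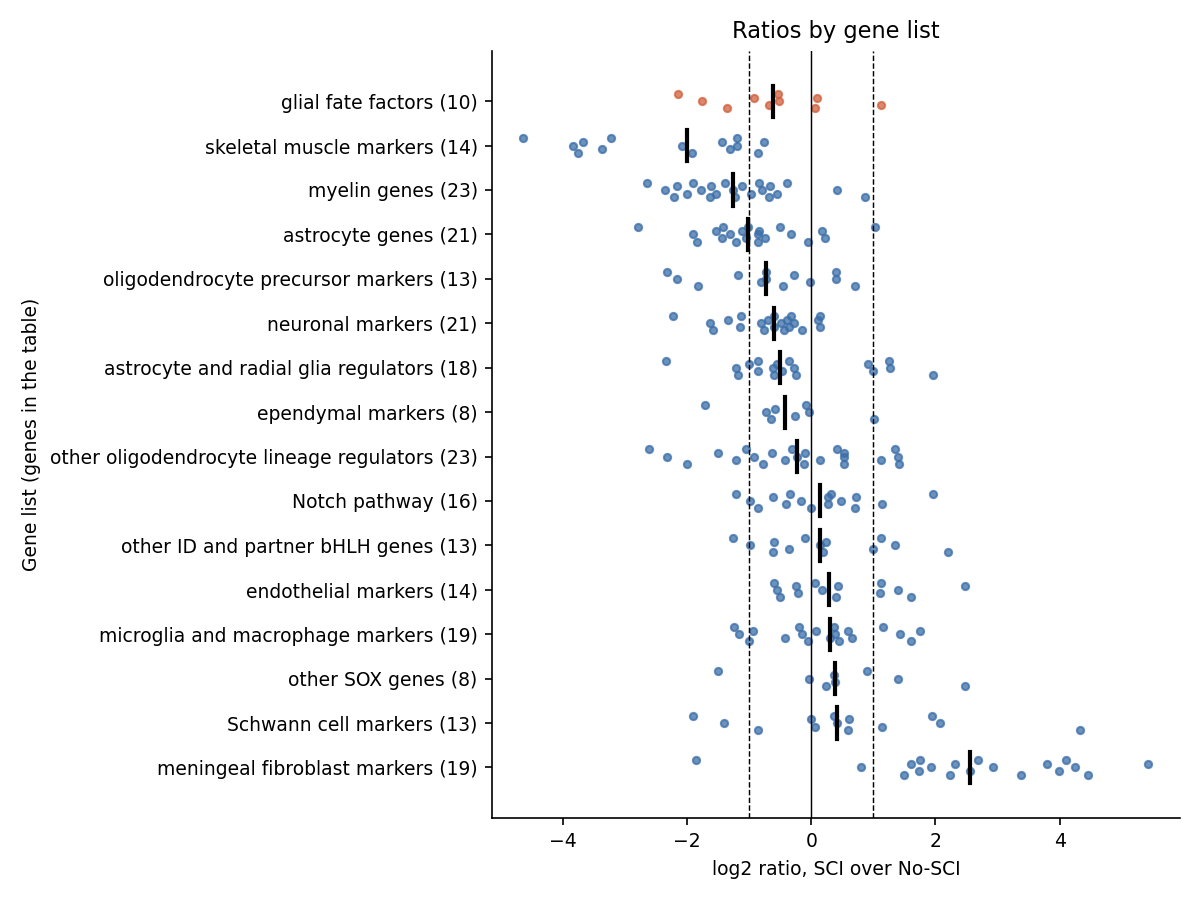
Log2 ratios of SCI over No-SCI for each gene with an entry, by gene list, with the number of genes in brackets, a black bar at the median and dashed lines at a 2-fold difference. The 10 factors spread from −2.15 to 1.13, the myelin and astrocyte genes lie mostly below 0, and the meningeal fibroblast markers lie mostly above 1.

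Markers of other cell types moved with the groups as well, and their part in the values of the 10 factors was not tested. Of 19 meningeal fibroblast markers with an entry, 18 were higher after SCI, 17 of them at least 2-fold, and their summed FPKM was 146 in No-SCI and 1857 in SCI. All 14 skeletal muscle markers with an entry were lower, 12 of them at least 2-fold, with a summed FPKM of 503 in No-SCI and 65.1 in SCI. SOX10 is also a Schwann cell gene. Of 15 Schwann cell markers that are not on the myelin list, 12 had an entry, 9 higher and 3 lower, with a summed FPKM of 268 in No-SCI and 354 in SCI. PRX, a protein of myelinating Schwann cells, went from 1.96 to 7.55 FPKM, while SOX10 was lower. POU3F1, SCN7A and FOXD3 had no entry. The endothelial list, which holds SOX17 and SOX18, had 9 of 14 genes higher and a summed FPKM of 99.3 in No-SCI and 164 in SCI. PECAM1, TEK, TIE1, LY6C1 and ROBO4 had no entry. Neuronal markers had 18 of 21 genes lower, with a median log2 ratio of −0.60, and SNAP25, NEFM and CHAT had no entry. Microglia and macrophage markers had 8 of 19 lower and a median log2 ratio of 0.30. Ependymal markers, which bear on SOX2 and SOX9 because both are expressed in ependymal cells, had 7 of 8 lower and a median of −0.42. By the 2-fold line, however, 1 was lower and 1 higher. TMEM212 went from 4.67 to 1.42 FPKM, near the lowest value of 1, and RARRES2, the most abundant, from 32.3 to 65.1 FPKM. The summed FPKM of the ependymal list was 80.6 in No-SCI and 99.1 in SCI. FOXJ1, the defining ependymal factor, had no entry.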

How the data were processed

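RNA of the supernatant was sequenced as stranded total RNA libraries after ribosomal RNA removal. Before alignment the authors reduced every library to the read number of the smallest. STAR 2.5.4b (version per the labels) placed the reads on rn6, and Cuffdiff 1.3.0, with values scaled by the upper quartile, gave FPKM. Each group has 1 deposited FPKM value per entry, which pools its libraries. The deposited p-value and q-value columns, the ratio (fold change) and its log2 are the authors' own comparison of SCI with No-SCI and were not used. The columns were read by their group names, and 0 value columns were left without a group.

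From FPKM, log2 ratios (SCI over No-SCI, no pseudocount) were computed, with ranks, percentiles, counts past 2-fold and medians of 15 gene lists. Of the entries of the 13 symbols that occur more than once, none of them a member, that with the higher mean was kept. Members and lists were chosen with earlier results of these data known. Genes named beside the 10 members are, for each list, the 3 most abundant in No-SCI and up to 3 with the largest ratio in each direction past 2-fold with a mean of at least 1.5 FPKM. Some genes that this rule names are not reported here. SOX and ID genes may all be named, and any listed gene outside the rule, such as SLC1A2, was chosen after its values were seen. With 1 value per group no depth, interval or test could be given. Promoters were taken from RefSeq (GRCr8) by symbol. Python 3.11.15, numpy 2.4.6, pandas 2.3.3 and matplotlib 3.10.9 were used.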

Additional observations from a re-analysis of the deposited data

How the results depend on the processing

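The log2 ratios of the 10 members were recomputed under 8 alternatives: pseudocounts of 1 and 0.1, 1 subtracted from both values, median centring, scaling to the same total or upper quartile, ratios relative to the median of the myelin genes, and a mean of at least 10 FPKM, which leaves out OLIG2. Median centring moved every log2 ratio up by 0.12, upper quartile scaling by 0.10 and total scaling by 0.05. SOX8, SOX9 and SOX10 kept their negative sign under each alternative. Only the setting relative to the myelin genes moved ratios far enough to bear on that sign, and it left SOX10 at −0.09. The other rescalings moved ratios by at most 0.12, and the remaining alternatives cannot change a sign. OLIG1, OLIG2 and NKX6-2 kept their positive sign under those run on them. None of the alternatives could have reversed it, because every rescaling moved the log2 ratios up and the others cannot change a sign. Relative to the myelin genes, the log2 ratios became positive for SOX2 (0.73), SOX6 (0.57), MYRF (0.34) and ID4 (0.74), the median of the members became 0.65, and 0 members were 2-fold lower and 3 were 2-fold higher, since this setting adds 1.26 to every log2 ratio. With a fold of 1.3 the number of lower members was 7, and with 1.5 it was 5. With a mean of at least 10 FPKM, which leaves fewer genes, the median log2 ratio was 3.90 for meningeal fibroblast and −3.52 for skeletal muscle markers. Of the other SOX genes only SOX5 was left, with its own log2 ratio of −1.50. Of the ependymal markers only ENKUR (−0.58) and RARRES2 (1.01) were left, with a median of 0.22. Neither value describes its list. No paired analysis was possible because the table has 1 value per group, and for the same reason no library could be left out. Depth limits are unknown.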
